A study of Sus scrofa with 6 samples.

Results

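miR-202 is a microRNA (miRNA, a short RNA that guides repression of messenger RNAs) known chiefly from ovary and testis. Its 2 mature arms, ssc-miR-202-5p and ssc-miR-202-3p (ssc for the pig), were taken by name from small RNA sequencing tables that list 326 mature pig miRNAs, and both had reads in all 6 libraries. The libraries came from denuded oocytes, freed of their cumulus cells, of prepubertal gilts (Sus scrofa). Large-follicle oocytes (LO, 3 libraries) came out of follicles 3 to 6 mm across, through a 20-gauge needle on a 10 mL syringe. Small-follicle oocytes (SO, 3 libraries) came out of follicles smaller than 2 mm, through a 23-gauge needle on a 5 mL syringe, so follicle size and aspiration differed together and cannot be told apart. The series design calls the libraries biological replicates, and how many animals or oocytes went into one was not known here.

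One miRNA hairpin gives 2 mature strands, one from each side of its stem. In most cases an Argonaute protein keeps one strand and the other is degraded, so the arms of a hairpin usually differ in level. The strand kept finds its targets mainly through the seed, bases 2 to 8 from the 5′ end. In the mouse, miR-202 is known from Sertoli cells of the fetal testis, where it lies downstream of SOX9, and from the maintenance of spermatogonial stem cells. In medaka, loss of the gene reduces the number of eggs a female lays. In the pig gene table (RefSeq, assembly Sscrofa11.1) the MIR202 gene lies between UTF1, a gene of pluripotent and germline stem cells, and ADAM8, a membrane metalloprotease gene, and overlaps no listed gene. The submitters' processing notes name another build, so no coordinates are given.

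The deposited mature sequences show what separates the 2 arms from each other and from the let-7 family, whose seed the 3p arm resembles. They are written 5′ to 3′ with T for U, and capitals mark the seed.
miR-202-5p: tTCCTATGcatatacttcttt
miR-202-3p: aGAGGTGTaggcatgggaa
let-7a: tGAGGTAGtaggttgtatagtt
let-7d-5p: aGAGGTAGtaggttgcatagtt
The 5p arm has 21 bases, of which 28.6% are G or C, and the 3p arm has 19 bases, of which 52.6% are G or C. A computed duplex of the arms held 17 base pairs. No other of the 326 listed miRNAs carried the seed of either arm, or matched either one over bases 2 to 7. Against let-7a, counting from the 5′ end, the seed of miR-202-3p differed by A7G and G8T. The 8 listed let-7 family names of the let-7a seed (7 let-7 names and miR-98) thus shared bases 2 to 6 with the 3p arm. Over the first 18 bases, compared position by position without shifts or gaps, the listed sequence nearest to miR-202-5p differed at 8 positions. Those nearest to miR-202-3p, let-7d-5p among them, differed at 9. In this comparison no listed name was near-identical to either arm. Likeness to a shifted sequence was not tested.

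The 5p arm was among the more abundant miRNAs of the oocytes, and its level varied more between libraries of a group than between the groups. Levels are in reads per 1000000 (RPM) of the total to which the authors scaled each library. A miRNA read covers the whole molecule, so levels were not divided by length. miR-202-5p had 247, 60.7 and 169 RPM in LO replicates 1 to 3, which were 142, 28 and 240 reads. It had 214, 124 and 100 RPM in SO replicates 1 to 3, which were 410, 237 and 219 reads. LO held both the highest and the lowest library, and all 3 SO values lay between them. The means were 159 ± 93.4 RPM in LO against 146 ± 60.2 RPM in SO (SD, n = 3 each).

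Within a library miR-202-5p ranked 20th, 28th and 23rd of the listed miRNAs in LO replicates 1 to 3, against 19th, 24th and 22nd in SO replicates 1 to 3. On the mean of the 6 libraries it ranked 23rd, with 152 RPM, and miR-205, the most abundant miRNA, stood 60.6-fold above it. The miRNAs next to it on that mean were miR-92a (164 RPM) and miR-101 (162 RPM) above, and miR-676-3p (128 RPM) and miR-27b-3p (127 RPM) below. The SDs of these 5 miRNAs over the libraries ran from 48.2 to 70.6 RPM, wide beside the gaps between the means. They include shifts shared by a whole library, so they do not settle the order of the neighbours within a library.

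The 3p arm was rare. miR-202-3p had 19.1, 13.0 and 4.21 RPM in LO replicates 1 to 3, from 11, 6 and 6 reads. It had 5.22, 6.25 and 7.31 RPM in SO replicates 1 to 3, from 10, 12 and 16 reads. LO replicates 1 and 2 lay above all SO libraries and LO replicate 3 lay below them, so the groups overlapped. The same 6 reads gave 13.0 RPM in LO replicate 2 and 4.21 RPM in LO replicate 3, because the first of these had the shallower total. The 3p arm averaged 12.1 ± 7.48 RPM in LO against 6.26 ± 1.05 RPM in SO (SD, n = 3 each), and ranked 92nd of the 326 names on the mean of the 6 libraries.

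**Figure D1:**
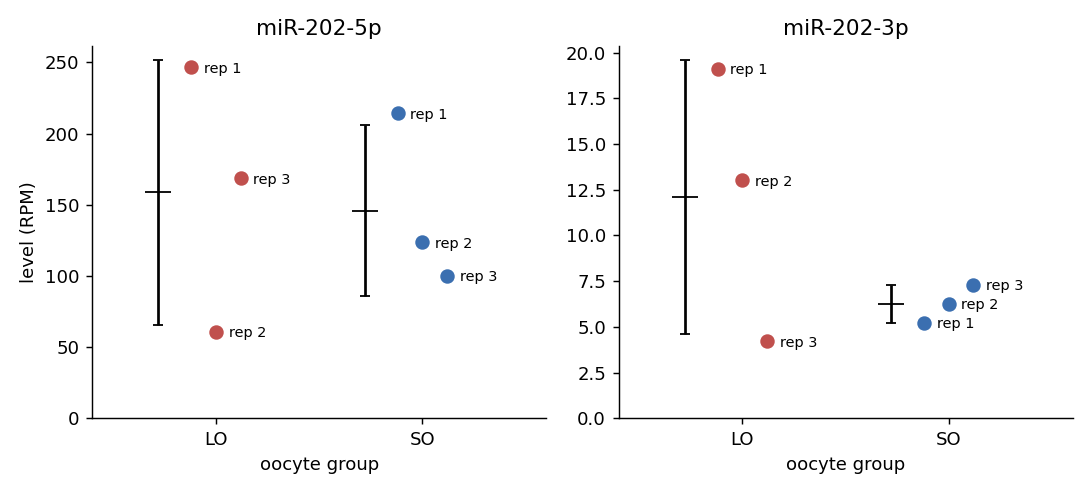
Levels of miR-202-5p (left) and miR-202-3p (right) in RPM for each library, LO left of SO, with the mean and SD (n = 3) as black bars beside the points; the vertical scales differ. LO runs from 60.7 to 247 RPM for the 5p arm and from 4.21 to 19.1 RPM for the 3p arm, and the SO libraries lie inside both ranges.

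Depth differed between the groups, with 7755 to 42541 reads of listed miRNAs in the 3 LO libraries and 44964 to 55230 in the 3 SO libraries. One read was worth 0.702 to 2.17 RPM in LO and 0.457 to 0.522 RPM in SO. LO replicate 2, the shallowest, also had the smallest part of its total in listed miRNAs, 1.68%, against 2.33% to 3.03% in the other libraries. The miR-202 results are therefore also given without it. As a share of listed miRNA reads, which does not use the authors' total, the 5p arm held 0.813%, 0.361% and 0.564% in LO replicates 1 to 3. Their 95% exact Clopper-Pearson intervals, which cover counting error only, were 0.685 to 0.958, 0.240 to 0.521 and 0.495 to 0.640. In SO replicates 1 to 3 the shares were 0.742% (0.672 to 0.817), 0.527% (0.462 to 0.598) and 0.430% (0.375 to 0.491). The intervals of LO replicates 1 and 2 did not meet, nor did those of SO replicates 1 and 2, so libraries of 1 group differed by more than counting error. Both arms together held 0.631% ± 0.224 of listed reads in LO against 0.592% ± 0.153 in SO (SD, n = 3 each). The difference of 0.0391 percentage points gave an exact two-sided permutation p of 0.7, where 0.1 is the smallest that 3 libraries against 3 can give.

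The 5p arm was the major product of the hairpin in every library, but by a factor that was not constant. There were 12.9, 4.67 and 40 reads of the 5p arm per read of the 3p arm in LO replicates 1 to 3. The ratio was 41.0, 19.8 and 13.7 in SO replicates 1 to 3. LO replicate 2 had the lowest ratio, while LO replicate 3 and SO replicate 1 were alike at the top, so the groups overlapped. With few 3p reads the exact intervals were wide, from 1.90 to 13.8 in LO replicate 2 and from 22.1 to 86.1 in SO replicate 1, and these 2 did not meet. Nor did the interval of LO replicate 2 meet that of LO replicate 3 (18.1 to 110), a library of the same group. Summed over the libraries, 1276 reads belonged to the 5p arm and 61 to the 3p arm, a 3p share of 4.56% (95% exact interval 3.51 to 5.82).

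On the log2 scale, with 0.5 reads added to each arm, the 5p to 3p ratio averaged 3.66 ± 1.54 in LO against 4.42 ± 0.79 in SO (SD, n = 3 each). The difference of -0.77 (SE 0.64, 95% interval -2.09 to 0.56) did not pass a false discovery rate (FDR, Benjamini-Hochberg) of 0.05 in limma, a linear model that pools the spread over features (FDR 0.763). Here limma gave all 5 hairpins fitted the same SE, so the SE and interval do not measure the spread of miR-202 itself. The exact permutation p of the difference of -0.77, which uses miR-202 alone, was 0.4. Single libraries moved it strongly. The difference was -0.0032 without LO replicate 2, where the arms had 28 and 6 reads, -0.33 without SO replicate 1, and -1.54 without LO replicate 3 (limma unadjusted p = 0.0222, FDR 0.111). The exact permutation p without LO replicate 3 was 0.2, the smallest that 2 libraries against 3 can give.

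**Figure D2:**
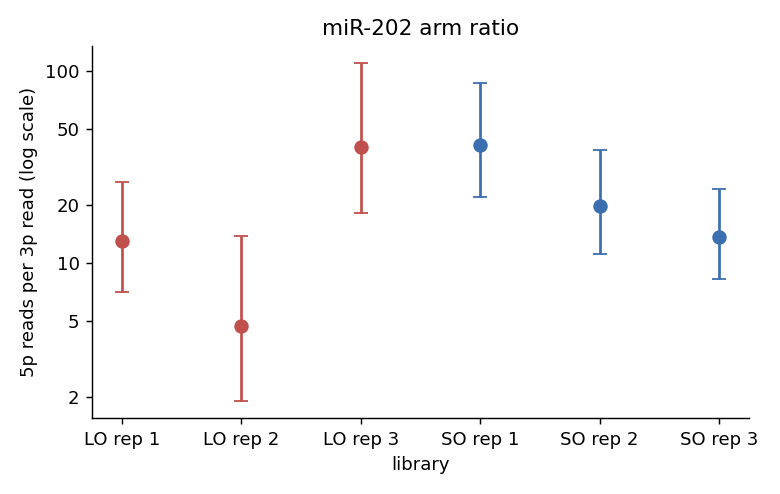
Reads of miR-202-5p per read of miR-202-3p in each library, on a log axis, with 95% exact Clopper-Pearson intervals that cover counting error only; LO libraries are red and SO libraries blue. The ratio runs from 4.67 in LO replicate 2 to 41.0 in SO replicate 1, and the 5p arm exceeds the 3p arm in all 6 libraries.

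Only 5 of the 77 hairpins listed with both arms reached a mean of 10 reads on both sides, and miR-202, with 61 reads of its rare arm over 6 libraries, passed this limit narrowly. None of the 5 passed FDR 0.05 in limma for a change in arm ratio (0%), and none had an unadjusted p under 0.05. The mean log2 ratio of miR-202 over the 6 libraries, 4.04, lay between those of miR-30e (4.28), whose hairpin belongs to the miR-30 family, and miR-664 (2.99). miR-30a had a mean log2 ratio of 4.82. miR-423 leaned slightly to the 3p arm, at -0.42. Between its lowest and highest library the log2 ratio of miR-202 spanned 3.16, the widest of the 5, against 1.19 to 1.99 for the other 4. miR-202 also had the fewest reads in its rarer arm, where the others averaged 13.3 to 35 reads. The part of this low count in the wide span was not tested.

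Among hairpins listed with both arms and with at least 100 reads over the libraries, the arm bias of miR-202 was ordinary. There were 28 such hairpins, of which 16 gave mainly the 5p arm and 12 mainly the 3p arm. The major arm held 95.4% of the reads of miR-202, 17 hairpins were more one-sided and 10 were less, and the median was 96.9%. The hairpins of miR-140 and miR-146a had no read of one arm among 272 and 1697 reads, while miR-142 gave 77.9% and miR-423 58.0% from the major arm. These shares are of reads summed over libraries, so deeper libraries weigh more, and the last 4 hairpins were chosen after their values were seen.

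The comparison of LO with SO asks whether the level of either arm goes with follicle size, which the series title relates to developmental competence. Neither arm passed the test. limma on log2(RPM + 1) over the 104 miRNAs with enough reads gave miR-202-5p a log2 fold change of -0.02, LO over SO (SE 0.50, FDR 0.985), with a 95% interval of -1.01 to 0.96. miR-202-3p had a log2 fold change of 0.66 (SE 0.73, FDR 0.780), with an interval of -0.78 to 2.10. Both intervals held 0 and also changes of nearly 1 log2 unit or more.

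Few other miRNAs passed a test either. At FDR 0.05 DESeq2 called 0 of the 242 miRNAs with at least 1 read. At the same FDR limma called 0 of the 104 (0%), with 4 (3.85%) at an unadjusted p under 0.05, and edgeR called 2 of the 104 (1.92%). Neither miR-202 arm was among them, with an edgeR FDR of 0.653 for the 5p arm and 0.747 for the 3p arm. Group ranges were apart for 4 of the 104 (3.85%) and overlapped for both arms of miR-202. Without LO replicate 2, limma called 18 of 104 (17.3%), all higher in LO. The log2 fold change was then 0.56 for the 5p arm (FDR 0.280) and 0.51 for the 3p arm (FDR 0.632). Without SO replicate 1 the 5p arm was also on the higher side, at 0.29.

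On the deposited scaling most miRNAs were higher in LO, with 72 of 104 above 0 and a median log2 fold change of 0.29. Scaling to listed miRNA reads, which does not use the authors' total, also gave 72 of 104, with a median of 0.285. TMM scaling gave 55 of 104, with a median of 0.05. Relative to the median, the log2 fold change of miR-202-5p was -0.31 on the deposited scaling and -0.32 with TMM. That of miR-202-3p was 0.36 and 0.39. The 5p arm lay below the median in each of the 14 alternative fits, by 0.44 at most on the log2 scale in DESeq2 and least without LO replicate 2, where the value was -0.07. In DESeq2 and in the fit without a filter, the median was over the 242 miRNAs with at least 1 read, not the 104. The 3p arm lay above the median in all of them but the fit without LO replicate 2, where the value was -0.12. The summed level of both arms differed by 0.05 on the log2 scale (exact two-sided permutation p = 1), with 171 ± 96.0 RPM in LO against 152 ± 59.2 RPM in SO (SD, n = 3 each).

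**Figure D3:**
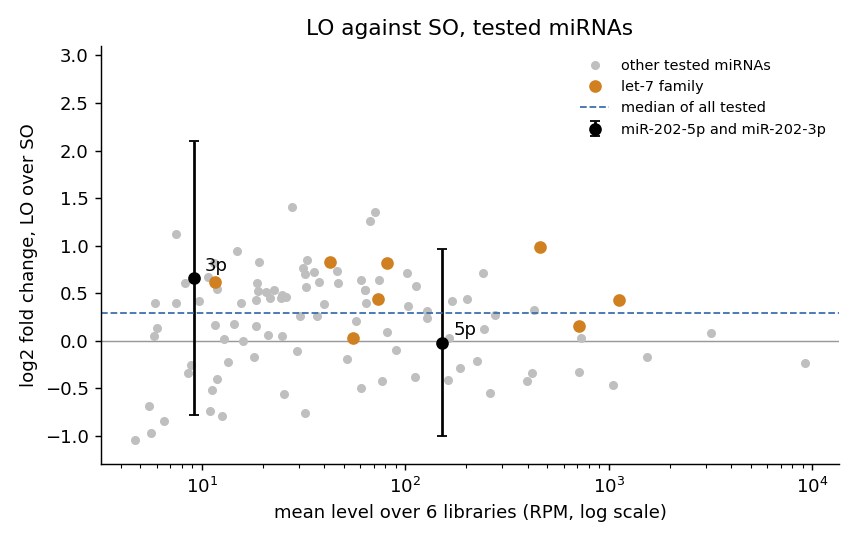
Log2 fold change, LO over SO, against the mean level in RPM (log axis) for the 104 tested miRNAs; miR-202-5p and miR-202-3p are black with limma's 95% intervals, the let-7 family is orange and the dashed line is the median of all tested, 0.29. Both intervals of miR-202 cross 0, and the 8 tested let-7 family members lie above 0 on this scaling, beside 72 of all 104 tested. With TMM 6 of the 8 do, beside 55 of the 104.

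The let-7 family, a set of miRNAs that build up during differentiation, is the nearest group to miR-202-3p by seed. Of its 9 listed names 8 were tested, and these are the names with the let-7a seed. The ninth, let-7d-3p, had 32 reads. All 8 had log2 fold changes above 0 on the deposited scaling, beside 72 of all 104 tested, and 6 with TMM, beside 55 of 104. Without LO replicate 1, 5 of the 8 were above 0, beside 47 of 104. None of the 8 passed FDR 0.05 in limma with all libraries. Their median log2 fold change was 0.53 beside 0.29 for all tested miRNAs on the deposited scaling, and 0.28 beside 0.05 with TMM. It moved with the rest of the table: without LO replicate 1 it was 0.09 beside -0.06 for all tested, and without LO replicate 2 it was 1.01 beside 0.62. In the fit without LO replicate 2, 3 of the 8 passed, beside 18 of all 104 tested (17.3%). let-7c was the highest at 0.98 (640 ± 460 RPM in LO against 276 ± 57.1 RPM in SO) and let-7i the lowest at 0.02 (57.0 ± 21.9 RPM in LO against 53.5 ± 10.7 RPM in SO). let-7a stood at 0.42, let-7d-5p at 0.82, let-7e at 0.82, let-7f at 0.16, let-7g at 0.44 and miR-98 at 0.62. The level of the let-7a seed was far above that of miR-202-3p: let-7a alone averaged 1314 ± 598 RPM in LO against 924 ± 177 RPM in SO (SD, n = 3 each).

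Over the 6 libraries, miR-202-5p followed the level of miR-21 closely. Likeness was measured as the root mean square difference of log2(RPM + 1) after each miRNA was centred on its own mean, a measure that a factor shared by a whole library hardly moves. The miRNAs nearest to miR-202-5p were miR-21 at 0.10, miR-27b-3p at 0.18 and miR-19b at 0.21, against a median of 0.55 over the other tested miRNAs. miR-21 is a widely expressed miRNA that restrains cell death, also in mouse granulosa cells around ovulation. miR-27b-3p comes from the miR-23b cluster and miR-19b from the miR-17 to miR-92 cluster. Of all 5356 pairs of tested miRNAs, 2 were closer than miR-202-5p with miR-21. These were let-7g with miR-195 and miR-29a with miR-29c, named after their values were seen.

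In reads, miR-21 stood at 1.68, 1.68 and 1.69 per read of miR-202-5p in LO replicates 1 to 3. The same ratio was 1.44, 1.45 and 1.67 in SO replicates 1 to 3. The ratio thus spanned 1.17-fold, while the level of miR-202-5p spanned 4.06-fold and that of miR-21 spanned 4.08-fold over the same libraries. The spans of the levels in RPM include shifts shared by a whole library, which cancel in the ratio. As a share of listed reads, miR-202-5p ran from 0.361% in LO replicate 2 to 0.813% in LO replicate 1. All 6 exact intervals of the ratio overlapped, the widest being 1.03 to 2.78 in LO replicate 2. Among the 99 other tested miRNAs with reads in every library, the median span of the ratio to miR-202-5p was 3.25-fold, and miR-21 had the smallest. Because miR-21 was picked as nearest on these same libraries, its small span restates that likeness in reads and is no separate support for it. Each LO ratio of miR-21 lay above each SO ratio, an order that 15 of the 103 other tested miRNAs (14.6%) showed against miR-202-5p, while 3 (2.91%) showed the opposite one. miR-21 itself averaged 267 ± 157 RPM in LO against 218 ± 78.8 RPM in SO (SD, n = 3 each), with a log2 fold change of 0.13 (limma FDR 0.936) that was -0.12 with TMM.

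The 3p arm had no such close partner, and its own 5p arm was far from it. The miRNAs nearest to miR-202-3p were miR-100 at 0.36, miR-22-3p at 0.56 and miR-29a at 0.56, against a median of 0.90. Its 5p arm stood at 1.0, 72nd in likeness among the 103 other tested miRNAs. Seen from the 5p arm, the 3p arm was 102nd of 103. miR-202-5p was lowest in LO replicate 2, at -1.17 on the centred log2 scale, where miR-202-3p stood at 0.63 from 6 reads. LO replicate 3 had the reverse, with 0.29 for the 5p arm and -0.80 for the 3p arm. The part of the low read number in this distance was not tested. On mean level the neighbours of the 3p arm were miR-574 (10.7 RPM) and miR-32 (9.66 RPM) above it and miR-424-5p (8.85 RPM) and miR-30e-3p (8.52 RPM) below it, beside 9.18 RPM for the arm itself. The SDs of the arm and these neighbours over the libraries were 3.94 to 5.75 RPM, wide beside the gaps between the means. They include shifts shared by a whole library, so they do not settle the order of these miRNAs within a library.

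**Figure D4:**
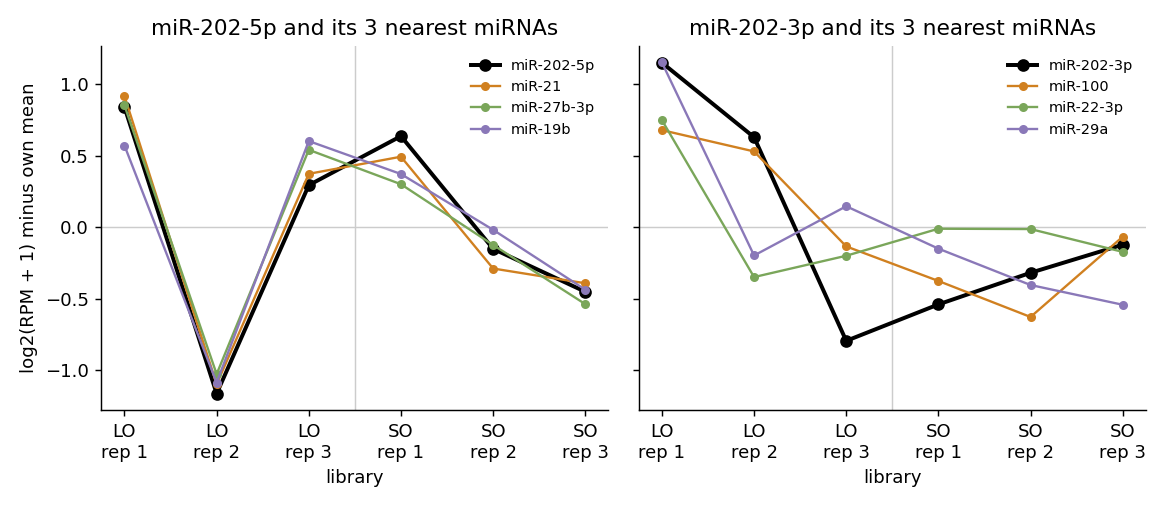
Log2(RPM + 1) minus each miRNA's own mean over the 6 libraries, for miR-202-5p (left) and miR-202-3p (right) in black with the 3 tested miRNAs nearest to each in colour; LO libraries are left of the vertical line and SO libraries right of it, and the lines only join the points. miR-202-5p and miR-21 stand at -1.17 and -1.10 in LO replicate 2 and at 0.84 and 0.92 in LO replicate 1.

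The libraries were searched for markers of the cells that surround an oocyte, since cells of the follicle wall and cumulus can also hold miR-202 and miR-21. In these RNA pools, more cells of a type and more RNA per cell cannot be told apart. Granulosa and cumulus markers, counted without miR-202, took 2.97%, 1.51% and 2.00% of listed reads in LO replicates 1 to 3. They took 1.81%, 1.67% and 1.25% in SO replicates 1 to 3. LO replicate 1 was highest both in this share and in the share of miR-202-5p. The orders differed elsewhere: the lowest library was SO replicate 3 for the markers and LO replicate 2 for miR-202-5p, and LO replicate 3 stood above SO replicate 1 for the markers and below it for miR-202-5p. miR-21, already named as nearest to miR-202-5p, and miR-31 made up nearly all of the marker reads, so this share is not separate from that likeness. The means were 2.16% ± 0.742 in LO against 1.58% ± 0.291 in SO (SD, n = 3 each), with an exact permutation p of 0.3 (two-sided). All 9 listed names of the list had reads, but only miR-21 and miR-31 were abundant enough to test. The other 7 had 1 to 42 reads over the 6 libraries, with miR-132, miR-212 and miR-383 at 10, 2 and 1. The most read of these 7, miR-221-3p, went the other way from the share, with 4.10 ± 1.68 RPM in LO against 5.13 ± 0.405 RPM in SO. On the means miR-132, miR-212, miR-221-5p and miR-383 were also lower in LO, and miR-222 and miR-224 were higher, each from 10 reads or fewer. The part of such cells in the level of miR-202 was not tested.

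miR-31, the other abundant marker of this list, varied more than miR-21 relative to miR-202-5p. It stood at 1.93, 2.43 and 1.82 reads per read of miR-202-5p in LO replicates 1 to 3, against 0.961, 1.65 and 1.16 in SO replicates 1 to 3. Each LO ratio lay above each SO ratio, and the ratio spanned 2.53-fold, against the median of 3.25-fold over other tested miRNAs. Its level was 310 ± 164 RPM in LO against 175 ± 51.2 RPM in SO (SD, n = 3 each; log2 fold change 0.71, limma FDR 0.780).

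Germ cell miRNAs gave 1 name to compare, miR-34c, which is known from male germ cells. It averaged 28 ± 2.19 RPM in LO against 31.0 ± 8.47 RPM in SO (SD, n = 3 each) and did not follow miR-202-5p. There were 0.113, 0.5 and 0.154 reads of miR-34c per read of miR-202-5p in LO replicates 1 to 3, against 0.190, 0.215 and 0.256 in SO replicates 1 to 3. This is a span of 4.44-fold. A miRNA table holds no messenger RNA markers of the oocyte, so the labelled cell type could be checked no further.

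Markers of other tissues were scarce. Theca, stroma and smooth muscle markers took 0.252% to 0.438% of listed reads in LO against 0.194% to 0.349% in SO, with 8 of 9 names read and miR-214 at 0. Endothelial markers took 0.0306% to 0.0645% in LO against 0.0137% to 0.0489% in SO, with both names read. Muscle markers took 0.0329% to 0.0774% in LO against 0.0157% to 0.0222% in SO, with 3 of 5 names read, and the liver miRNA miR-122 took 0.0258% to 0.0658% in LO against 0.00890% to 0.0903% in SO. Blood cell markers, all 6 of them read, took 0.0235% to 0.0645% in LO against 0.0133% to 0.208% in SO. The highest of these was SO replicate 1, with 80 reads of miR-142-3p and 22 of miR-142-5p, but 2 of miR-144 and 1 of miR-486. It was also the SO library with the most miR-202-5p. The orders differed elsewhere. LO replicate 1, with the most miR-202-5p of all 6, took 0.0344%, with 2 reads of miR-142-3p. SO replicate 2 had more miR-202-5p than SO replicate 3 but a smaller blood share, 0.0133% against 0.0236%. The part of blood cells in the level of miR-202-5p was not tested.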

How the data were processed

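RNA was isolated with the mirVana kit and libraries were prepared with QIAGEN's QIAseq chemistry for miRNAs, per the labels' protocols. Tools listed without a role in the submitters' processing notes are cutadapt, Bowtie2 2.2.2, bcl2fastq and edgeR, beside genome build Sscrofa10.2. The deposited values, headed TPM, were read as RPM, because in each library all values above 0 (100%, tolerance 0.01 read) were whole multiples of 1 step whatever the sequence length; dividing by the step gave reads, 104 miRNAs passing filterByExpr. Whether molecular identifiers were counted is not given in the sources consulted.

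The main test was limma 3.58.1 (R 4.3.3) with an intensity trend on log2(RPM + 1), with group as the only term. As the scale adds 1 RPM, it understates changes of rare miRNAs. limma's SE follows that trend more than a miRNA's own replicates. Arm ratios were fitted by limma with 0.5 reads added. Single values used exact permutation (SciPy 1.17.1). The arms were paired with RNAduplex of ViennaRNA 2.7.2. Alternatives were edgeR 4.0.16 (quasi-likelihood, TMM, on the recovered reads, calling 2 miRNAs), DESeq2 1.42.0, other scalings, pseudocounts, filters, a block for the replicate number, and leaving out libraries in turn. The fits were tested on simulated data with planted changes far larger than those of miR-202. That test therefore does not tell how the fits do on small changes.

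Named miRNAs are both arms, the 3 nearest in likeness, the 2 next in level on each side, the nearest arm ratios, the let-7 family and tested granulosa markers; others are said to be chosen later or are marker list members, miR-205 apart. Members, lists and tests were chosen with earlier results of these data known.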

Additional observations from a re-analysis of the deposited data

How the results depend on the processing

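The count of 0 calls by limma was 2 in edgeR with TMM and ran from 0 to 18 when 1 library was left out, the 18 without LO replicate 2; it was 0 in the other settings. The log2 fold change of miR-202-5p, -0.02, ran from -0.45 to 0.56 when 1 library was left out and turned to the higher side without LO replicate 2 (0.56) and without SO replicate 1 (0.29). That of miR-202-3p ran from 0.24 to 1.22 and was on the higher side in all 14 alternatives. The summed arms, at 0.05, ran from -0.36 to 0.56 and turned without LO replicate 1 (-0.36), LO replicate 3 (-0.05), SO replicate 2 (-0.03) and SO replicate 3 (-0.17). The share difference of 0.0391 percentage points ran from -0.0835 to 0.135, turning without LO replicate 1 (-0.0835) and SO replicate 3 (-0.0262), and was -0.0241 with miR-205 left out of the denominator. The granulosa and cumulus share difference ran from 0.176 to 0.905 and the arm ratio difference from -1.54 to -0.0032. At -1.54, without LO replicate 3, the limma FDR was 0.111. No setting took either arm or the arm ratio past FDR 0.05. The causes were not tested. With a mean of at least 20 reads per arm miR-202 was not among the 2 hairpins left, so that setting gives no value.

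With the replicate number as a block, limma called 0, and the values were -0.02 (FDR 0.988) for the 5p arm, 0.66 (FDR 0.853) for the 3p arm and -0.77 (FDR 0.683) for the arm ratio. Same-numbered libraries did not deviate together (r across tested miRNAs -0.34, -0.22 and 0.08), and 1 of 6 libraries was closest to its own number. The 3p arm had 6 to 16 reads per library.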
